A study of Mus musculus with 13 samples.

Results

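Melanomas that arose in mice with an oncogenic Braf allele and loss of Cdkn2a were compared with melanocytes of the same genotype that had stopped growing. RNA was hybridised to Affymetrix arrays that cover whole transcripts. Of the 13 arrays in 6 groups, 4 belong to the comparison: 2 arrays of uncultured Cdkn2a/Braf melanoma tissue, and 2 arrays of Cdkn2a/Braf melanocytes purified by flow sorting (FACS) at day 50, a time the labels place after growth arrest. They were chosen by their labelled genotype, material and day, and the labels call the arrays of a group biological replicates. Cdkn2a loss and the Braf allele are shared by all 4. The driver of the recombination, the event from which days are counted, the age and sex of the animals, and whether samples hold 1 animal or several are left unstated by the labels of these 2 groups. The other 9 arrays were of Cdkn2a/Braf melanocytes at day 19, before arrest (2), Cdkn2a-only melanocytes with wild-type Braf at day 19 (2), Cdkn2a/Braf/Lkb1 melanoma (2) and pooled Lkb1/Braf melanocytic proliferations (3). They share in the estimate of the spread, and their levels are given beside some genes. As nothing names separate animals, the p-values rest on the spread between samples, pooled over all 6 groups, which may be technical.

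Melanocytes make melanin in melanosomes, with enzymes and matrix proteins whose genes are driven by the transcription factor Mitf. Braf is the kinase that passes signals from Ras to Mek and Erk, and in melanocytes its oncogenic form is known for a burst of growth followed by arrest, as in a mole. Cdkn2a encodes the CDK inhibitor Ink4a and the Mdm2 inhibitor Arf, and both pathways restrain the cell cycle. The comparison asks which genes separate a tumour from arrested cells that carry the same alleles. Whole tumour tissue holds stroma and immune cells that a sort should remove, so lesion and material cannot be told apart, and genes of other skin cell types are given separately. In such bulk samples fewer cells of a type and less RNA per cell also cannot be told apart.

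Levels below are log2(intensity + 1), where the intensity is the deposited value of the gene's probe set. A difference is the melanoma mean minus the day 50 mean on that scale, with its standard error (SE) and its adjusted p from a limma fit of 6 group means over all 13 arrays, corrected over 19937 genes. A gene is said to have risen or fallen when the adjusted p was under 0.05. Low intensities carry background, so a difference whose lower side is dim understates the change.

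The 4 arrays differed in ways that touch every result. Gene levels were more compressed in the sorted cells, with interquartile ranges of 1.94 and 1.93, than in the tumours, with 2.45 and 2.53. The day 50 replicates differed from each other with an SD over genes of 0.703 (r = 0.91 over genes, which are not independent replicates), against 0.404 (r = 0.977) for the melanoma replicates. In the groups outside the comparison this SD ran from 0.271 to 0.388. The fit pools the spread of a gene over all groups, so its p-values can be too small where the day 50 arrays disagreed. The groups also differed in sex-linked genes: Xist, the RNA that silences an X chromosome in females, and Eif2s3y, a gene of the Y chromosome, were chosen after their values were seen. Xist read 4.76 and 4.44 in melanoma against 9.57 and 9.95 at day 50. Eif2s3y read 7.35 and 8.35 in melanoma against 3.42 and 3.73 at day 50. Xist just missed the threshold (adjusted p = 0.0501), and Eif2s3y, at an adjusted p of 0.0403, lost its call without any of the 4 arrays. The sex of the animals and the lesion cannot be told apart here. Braf itself read 8.30 and 8.44 in melanoma against 8.20 and 7.99 at day 50, a difference of 0.28 (SE 0.13, adjusted p = 0.106). Cdkn2a differed by -0.10 (SE 0.16, adjusted p = 0.634) and Stk11, which encodes Lkb1 and is intact in both groups by their labels, by 0.35 (SE 0.39, adjusted p = 0.486). The labels do not say where the deleted segments lie relative to these probe sets, so the levels of Cdkn2a do not check its label.

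Of the 19937 genes, 6462 (32.4%) passed the test, with 3087 higher in melanoma (15.5%) and 3375 lower (16.9%), and the median difference of all genes was -0.15. The counts of every gene list below are to be read beside these shares. Increases were larger than decreases: 1851 of the higher genes but 330 of the lower ones differed by at least 1 on the log2 scale. Level and direction went together. Among the 9968 genes above the median mean level of 6.51, 2632 were higher (26.4%) and 896 lower (8.99%), with a median of 0.22. Among the 9969 genes at or below it, 455 were higher (4.56%) and 2479 lower (24.9%), with a median of -0.31. With every array scaled to the same interquartile range the counts were 2952 higher and 3331 lower, the median of all genes was -0.05, and genes above the median level turned to 1448 higher and 2400 lower. Both melanoma arrays lay above both day 50 arrays for 5116 genes (25.7%) and below them for 8527 (42.8%). A fit of the 4 arrays alone, which has to take its spread from them, called 506 genes (2.54%), 468 higher (2.35%) and 38 lower (0.191%). Small differences of dim and of very bright genes moved with the fit and the scaling, and most genes described below differed by more than 1. Larger differences also lost calls with the fit. Of 224 named genes, 100 were called in the main fit but not in the fit of the 4 arrays alone. With array weights 43 of them lost the call.

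**Figure D1:**
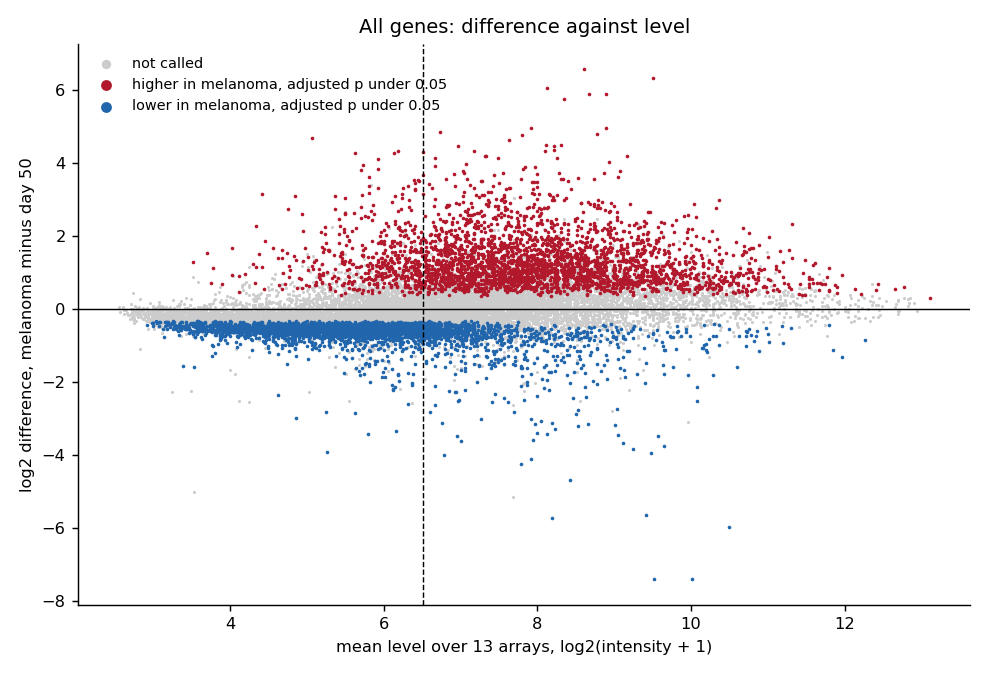
Difference of each of the 19937 genes, melanoma minus day 50 (log2, vertical axis), against its mean level over 13 arrays (log2(intensity + 1), horizontal axis); red genes were higher and blue genes lower in melanoma at an adjusted p under 0.05, and the dashed line is the median level of 6.51. Most of the 3375 lower genes lie in a narrow band at low levels, while the 3087 higher genes spread to differences above 6.

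The pigment genes showed the deepest decreases. Dct, the dopachrome tautomerase of eumelanin synthesis, read 5.0 and 5.95 on the melanoma arrays and 12.69 and 13.05 on the day 50 arrays. Tyrp1, its partner enzyme in the melanosome membrane, read 5.08 and 5.77 against 12.71 and 12.92. The difference was -7.40 for Dct (SE 0.27, adjusted p = 4.15e-07) and -7.39 for Tyrp1 (SE 0.20, adjusted p = 8.12e-08), 168-fold for each. On both melanoma arrays these genes lay below the median of all genes (6.50 and 6.47), whereas at day 50 they lay near the top of the range. Mlana, a melanosome biogenesis protein, read 6.49 and 6.98 against 12.53 and 12.90, and fell by 5.98 (SE 0.19, adjusted p = 1.67e-07). Pmel, which forms the fibrils on which melanin is laid down, read 5.73 and 6.17 against 11.27 and 11.90, and fell by 5.64 (SE 0.22, adjusted p = 6.69e-07). Each of these pairs was far apart, with a gap between groups many times that between replicates.

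Tyr, the tyrosinase that starts melanin synthesis, read 4.45 and 4.34 in melanoma and 7.40 and 9.90 at day 50. The day 50 replicates were thus far apart, and the difference of -4.25 (SE 0.59, adjusted p = 0.000894) ranged from -5.50 to -3.00 when an array was left out. The melanosomal transporters Slc24a5 and Slc45a2 fell by 3.17 and 3.08, from 9.11 and 9.94 to 6.38 and 6.32 for Slc24a5, and from 8.36 and 8.74 to 5.53 and 5.41 for Slc45a2. Gpnmb, a melanosomal glycoprotein that macrophages also make, fell by 2.14 (adjusted p = 0.00838) and lost the call without melanoma replicate 2. Of the 12 melanin and melanosome matrix genes 9 fell and 0 rose, with a median of -3.13, beside 16.9% of all genes lower. Oca2, Gpr143 and Slc24a4 did not pass. They were dim at day 50 already: Oca2 read 5.43 and 6.98 there against a mean of 9.23 at day 19, Gpr143 4.67 and 5.86 against 9.12, and Slc24a4 5.64 and 5.70 against 9.55.

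The other melanoma group also had low levels of Dct, Mlana and Pmel, and the proliferations lay between. Mean Dct was 4.98 in Cdkn2a/Braf/Lkb1 melanoma and 10.12 in Lkb1/Braf proliferations, and it was 13.29 at day 19. Mean Mlana was 6.86, 10.25 and 13.21 in the same order, and mean Pmel was 6.15, 8.16 and 12.56. Both sorted Braf groups thus held more of these 3 transcripts than either melanoma group.

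**Figure D2:**
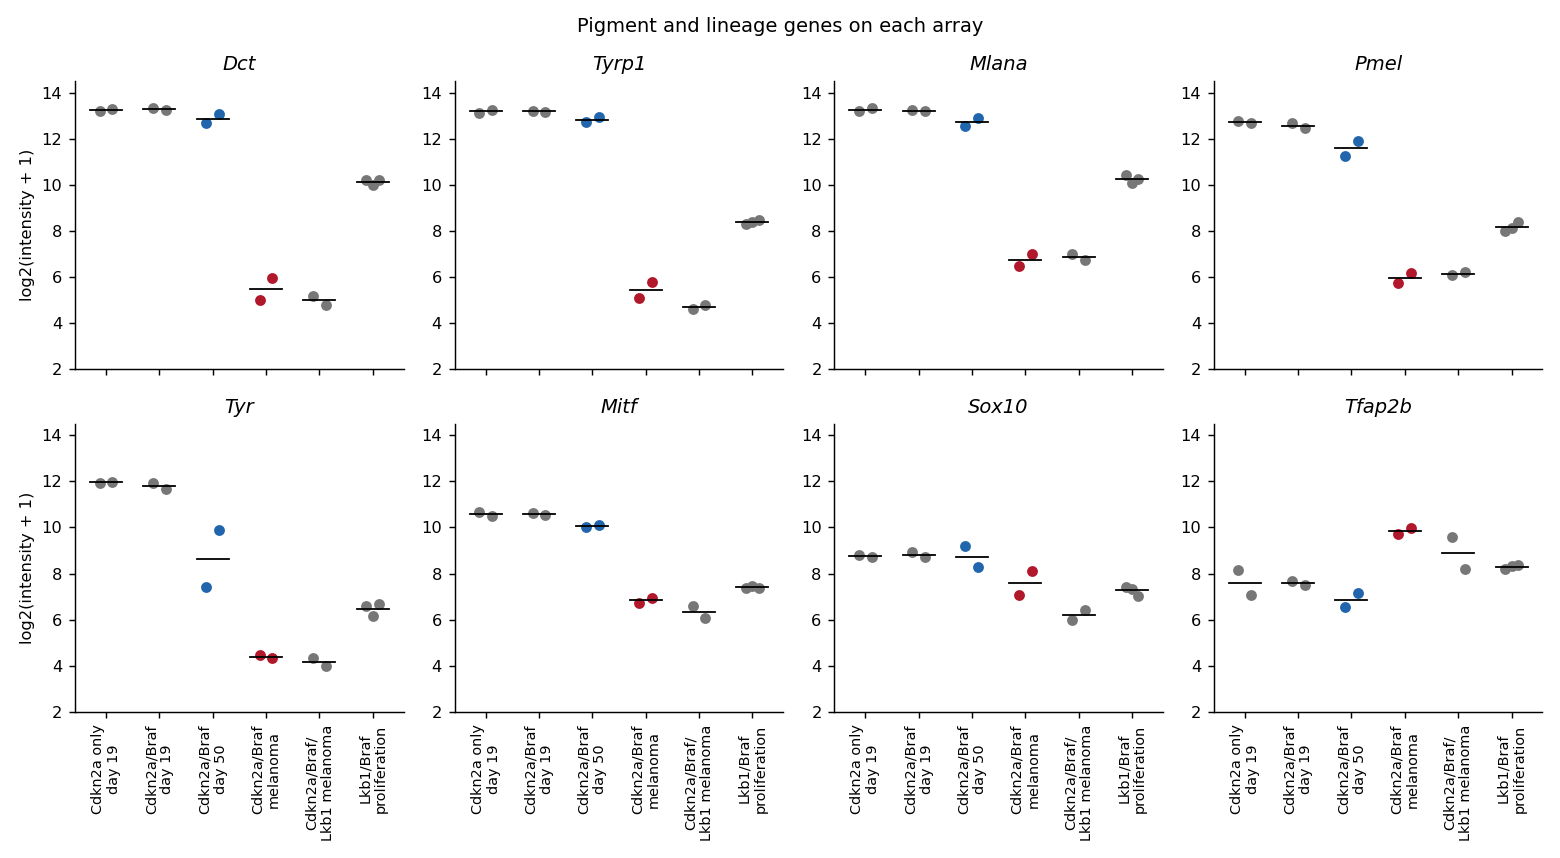
Levels of 8 pigment and lineage genes on each array (log2(intensity + 1)) in the 6 groups; each point is an array, each line a group mean, red marks Cdkn2a/Braf melanoma and blue marks day 50. Dct, Tyrp1, Mlana and Pmel lie between 5.0 and 6.98 in Cdkn2a/Braf melanoma and above 11 at day 50, while Tfap2b is higher in melanoma (9.71 and 9.97 against 6.54 and 7.16).

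The promoters of the pigment list, called or not, were searched for TCATGTG, the core of the M-box, an element known to be bound by Mitf. RefSeq promoter entries (GRCm38.p6) were at hand for 8 of the 12 pigment genes, Oca2 and Slc24a4 among them, which did not pass the test. Entries were not at hand for Mlana, Pmel, Slc45a2 and Gpr143. Within the 250 bases before the start of transcription, 4 of the 8 held the motif on either strand, as did 1068 of all 32851 promoter entries of that length (3.25%). The 8 were counted as genes, with a match in any entry of the gene, and the 3.25% over single entries, so the units differ. The last 160 bases before the start are shown for those 4, written in the direction of the gene, with the motif in capitals, because the motif lies at a different distance from the start in each. Tyr lies at chr7:87493513-87493672 on the minus strand, Tyrp1 at chr4:80834053-80834212 on the plus strand, Dct at chr14:118052247-118052406 on the minus strand and Slc24a5 at chr2:125067967-125068126 on the plus strand.
Tyr: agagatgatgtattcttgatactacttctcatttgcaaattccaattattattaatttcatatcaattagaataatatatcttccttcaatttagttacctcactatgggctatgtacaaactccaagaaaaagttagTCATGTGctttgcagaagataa
Tyrp1: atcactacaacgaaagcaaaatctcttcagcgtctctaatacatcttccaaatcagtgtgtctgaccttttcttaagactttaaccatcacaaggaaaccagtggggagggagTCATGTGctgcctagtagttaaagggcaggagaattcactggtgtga
Dct: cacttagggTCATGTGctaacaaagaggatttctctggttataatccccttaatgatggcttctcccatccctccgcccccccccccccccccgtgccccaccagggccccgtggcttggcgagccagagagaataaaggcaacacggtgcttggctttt
Slc24a5: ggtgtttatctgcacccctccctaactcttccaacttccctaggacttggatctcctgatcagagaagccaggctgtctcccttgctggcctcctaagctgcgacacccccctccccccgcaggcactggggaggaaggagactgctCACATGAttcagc

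The motif begins 22 bases before the start in Tyr, 47 in Tyrp1, 151 in Dct and 13 in Slc24a5, where it stands on the other strand and so reads CACATGA. In Tyr, Tyrp1 and Dct the motif is followed by ct. A match describes these letters only, and no binding was measured. Mitf itself read 6.74 and 6.94 in melanoma against 10.01 and 10.10 at day 50, a fall of 3.21 (SE 0.17, adjusted p = 4.11e-06) or 9.26-fold.

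The lineage factors and receptors upstream of pigment did not all move with Mitf. Ednrb, the endothelin receptor of melanoblasts, fell by 3.47 (7.50 and 7.29 against 10.95 and 10.78, adjusted p = 8.21e-07). Kit, the receptor for stem cell factor, read 6.79 and 8.07 against 9.41 and 10.91 and fell by 2.73 (SE 0.47, adjusted p = 0.00284). Mast cells also make Kit, and the melanoma replicate with more Kit was the replicate with more mast cell transcripts, described with the other cell types. The part of mast cells in the level of Kit was not tested. Pax3 and Mc1r, the melanocortin receptor, each fell by 1.49, and Pax3 kept a level of 9.17 and 9.26 in melanoma. Sox10, a factor of the whole neural crest lineage, read 7.05 and 8.13 against 9.18 and 8.30. Its fall of 1.15 (SE 0.36, adjusted p = 0.0357) was lost without melanoma replicate 1 or day 50 replicate 1. Tfap2a read 8.82 and 8.66 against 9.22 and 8.30, overlapping groups. Tfap2b, a related factor of the neural crest, went the other way: 9.71 and 9.97 against 6.54 and 7.16, a rise of 2.99 (SE 0.44, adjusted p = 0.00122). In this list of 13 lineage factors and receptors 7 fell and 1 rose, with a median of -1.11, beside 16.9% of all genes lower.

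In the list of melanosome transport and sorting genes, Rab27a fell furthest. Rab27a, the small GTPase on the melanosome, read 6.61 and 6.71 in melanoma against 10.18 and 10.46 at day 50, a fall of 3.66 (SE 0.23, adjusted p = 1.12e-05). Sytl2, which binds Rab27a and is no member of that list, fell by 4.11 (5.08 and 4.79 against 9.33 and 8.76). Mlph, the link from Rab27a to the motor, fell by 1.57, and the motor Myo5a by 1.13, a call lost without melanoma replicate 1. Of 17 melanosome transport and sorting genes 6 fell and 0 rose, with a median of -0.25, beside 16.9% of all genes lower. Fewer fell without either melanoma array or day 50 replicate 1. The other members that fell were Rab38 (-1.27), a GTPase that delivers pigment enzymes, Hps4 (-1.31) and Hps6 (-0.48). Rab38 lost its call without melanoma replicate 1, Hps4 without either melanoma array or day 50 replicate 1, and Hps6 without any of the 4 arrays. The general sorting genes Ap3b1 (-0.14), Ap3d1 (-0.10), Hps1 (-0.25) and Hps5 (0.41) did not pass. Mcoln3, an endolysosomal cation channel, had levels of 4.83 and 5.0 against 10.15 and 11.10, a fall of 5.71 (SE 0.28, adjusted p = 2.89e-06). Gpm6a, a neuronal membrane glycoprotein, fell by 4.69 (6.16 and 5.64 against 11.34 and 9.83).

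The 2 largest increases were those of Penk and Crabp1. Penk, the precursor of the enkephalin opioid peptides, read 12.76 and 12.67 in melanoma against 6.14 and 6.18 at day 50. Crabp1, a retinoic acid binding protein, read 13.25 and 12.89 against 6.71 and 6.78. Penk rose by 6.55 (SE 0.50, adjusted p = 3.02e-05) and Crabp1 by 6.32 (SE 0.19, adjusted p = 1.11e-07), which is 93.9-fold and 80.1-fold. Both genes were also bright in Cdkn2a/Braf/Lkb1 melanoma, with means of 10.62 for Penk and 13.22 for Crabp1, and lower in Lkb1/Braf proliferations, at 9.72 and 9.26. Pla2g7, which inactivates platelet-activating factor, rose by 5.89 (12.07 and 11.29 against 6.05 and 5.52), but its mean in the day 19 melanocytes was 10.13. Aspn, a small matrix proteoglycan, rose by 6.04 (11.19 and 11.03 against 4.67 and 5.47). The matrix protein gene Efemp1 rose by 4.45, the integrin-like Itgbl1 by 4.62, the RNA-binding Bicc1 by 4.76, Cped1 by 4.49 and the kinase gene Stk17b by 4.49. Tac1, the precursor of substance P, differed between the melanomas, with 9.77 on replicate 1 and 6.85 on replicate 2 against 3.78 and 3.48 at day 50.

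Genes of the neural crest and dedifferentiation list moved in both directions. Prrx1, a homeobox factor of mesenchyme, read 11.38 and 11.12 in melanoma against 5.58 and 5.44 at day 50, a rise of 5.74 (SE 0.27, adjusted p = 2.34e-06) or 53.6-fold. Twist1, an EMT factor, read 9.11 and 9.05 against 6.16 and 5.77 and rose by 3.11 (SE 0.22, adjusted p = 2.03e-05). Nes, the intermediate filament of neural progenitors, read 8.52 and 9.94 against 6.27 and 6.19 and rose by 3.00 (adjusted p = 0.000484). Axl, a receptor kinase often high where Mitf is low, read 9.28 and 9.30 against 7.54 and 7.56 and rose by 1.74 (adjusted p = 0.000167). Sox2 rose by 1.62 and Aqp1, a water channel, by 2.76. Ngfr, the nerve growth factor receptor used as a neural crest marker, did not join them: 7.33 and 7.41 against 7.91 and 7.76, a fall of 0.47 (adjusted p = 0.0235) that was lost when melanoma replicate 1, melanoma replicate 2 or day 50 replicate 1 was left out. Foxd3 fell by 0.48 and lost its call under the same omissions, Ets1 fell by 1.03 and Sox9 (0.40) did not pass. Of 20 genes in the list 9 rose and 4 fell, with a median of 0.68, beside 15.5% of all genes higher, and 2 fell without either melanoma array.

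Cadherin genes also moved in both directions. Cdh3, the P-cadherin of epidermis and hair follicle melanocytes, read 5.47 and 5.60 in melanoma against 9.0 and 9.23 at day 50, a fall of 3.58 (SE 0.17, adjusted p = 2.67e-06). Cdh1, the E-cadherin that ties melanocytes to keratinocytes, read 6.28 and 7.74 against 9.70 and 9.87 and fell by 2.78 (SE 0.50, adjusted p = 0.00381). Cdh11, a mesenchymal cadherin, read 11.39 and 11.50 against 6.82 and 6.49, a rise of 4.79 (SE 0.33, adjusted p = 1.73e-05) or 27.7-fold. Cdh6 rose by 2.46, Cdh13 by 1.88 and Cdh2, the N-cadherin, by 1.61 (8.76 and 9.18 against 7.51 and 7.20), a call that Cdh2 lost without melanoma replicate 2. Among EMT factors Zeb1 rose by 1.45 and Snai2 by 1.41, and Snai1 (0.06), Zeb2 (0.13) and Twist2 (0.53) did not pass. Fn1, the matrix protein fibronectin, rose by 2.52 (12.38 and 12.42 against 10.22 and 9.55). The list of 20 split, 8 higher and 4 lower, beside 15.5% of all genes higher and 16.9% lower. Fewer were lower without melanoma replicate 2 or day 50 replicate 1. The median of 0.21 turned to -0.33 when arrays were scaled to 1 interquartile range and to -0.01 under quantile normalization.

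Several of these genes are also known from fibroblasts or epidermis. Of 19 fibroblast genes 9 rose, 0 fell and 10 did not pass, beside 15.5% of all genes higher, and their summed intensity was 18471 and 18614 on the melanoma arrays against 8207 and 7987 on the day 50 arrays. Of 22 keratinocyte genes 6 fell, 0 rose and 16 did not pass, beside 16.9% of all genes lower, and Cdh1 and Cdh3 are themselves members of that list. Without melanoma replicate 1 that list had 2 higher and 4 lower, with a median of -0.30. The part of fibroblasts in the rise of Prrx1, Twist1, Cdh11, Aspn and Fn1, and the part of keratinocytes in the fall of Cdh1 and Cdh3, was not tested. Nor was the part of stroma and immune cells tested for any other rise given here, before or after.

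Genes of mitosis were higher on melanoma replicate 1, where the median level of the list was 7.81, than on melanoma replicate 2 (6.52) or at day 50 (6.17 and 6.42). Mad2l1, a spindle checkpoint protein, read 9.67 and 8.31 in melanoma and 4.85 and 6.01 at day 50, a rise of 3.56 (SE 0.49, adjusted p = 0.000935). Kif11, the motor that separates spindle poles, read 8.19 and 6.58 against 5.18 and 4.79 and rose by 2.40 (adjusted p = 0.00693). Ccna2, cyclin A, read 8.65 and 7.28 against 6.08 and 5.88 and rose by 1.99 (adjusted p = 0.00685). Of 32 mitosis genes 9 rose and 0 fell, with a median of 0.76. Beside them, 15.5% of all genes and 26.4% of genes above the median level were higher. Cdk1, Top2a, Bub1, Cenpe, Hmmr and Cks2 made up the rest of the 9, and each lost its call without melanoma replicate 1. Cenpe also lost it without day 50 replicate 1, and Hmmr without either day 50 array. Without that replicate 3 of the 32 rose and the median was 0.18. Without melanoma replicate 2, 19 rose and the median was 1.45. The proliferation marker Mki67 read 7.98 and 6.62 against 6.93 and 6.51 and did not pass (0.58, SE 0.41, adjusted p = 0.274). Plk1 (-0.19), Cdc20 (0.08) and Birc5 (0.14) overlapped between the groups. Means in Cdkn2a/Braf/Lkb1 melanoma were higher still, 8.98 for Kif11 and 8.51 for Mki67.

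Of 32 genes of DNA replication and S phase 5 rose and 0 fell, with a median of 0.17, a share close to the 15.5% of all genes that were higher. Mcm4, a helicase subunit, read 8.35 and 7.10 against 6.73 and 6.05 and rose by 1.34 (adjusted p = 0.0281), and Ccne2, a cyclin E, rose by 1.34 (6.45 and 5.77 against 4.85 and 4.70). Without melanoma replicate 1 the count was 0 higher and 1 lower, with a median of -0.04, and without melanoma replicate 2 it was 7 higher. Mcm4 also lost its call without day 50 replicate 2. Pcna (-0.03), Mcm2 (0.09), Mcm5 (-0.18) and Tyms (0.23) did not pass.

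The entry into the cell cycle showed a D cyclin pattern that both melanoma arrays shared. Ccnd1, cyclin D1 and a known Erk target, read 11.19 and 11.06 in melanoma against 9.25 and 9.29 at day 50, a rise of 1.85 (SE 0.18, adjusted p = 0.000122). Ccnd2 read 10.84 and 10.92 against 9.01 and 8.92 and rose by 1.92 (SE 0.26, adjusted p = 0.00083), and Ccnd3 (-0.10) did not pass. Cdk6, a partner of the D cyclins, read 8.89 and 8.80 against 6.31 and 7.16 and rose by 2.11 (adjusted p = 0.00117), while Cdk4 (-0.26) did not pass. Cdk2, the partner of cyclins E and A, moved the other way, 7.19 and 7.25 against 9.20 and 10.07, a fall of 2.42 (SE 0.26, adjusted p = 0.000192). Its mean was 9.96 at day 19. In the RefSeq annotation (GRCm38.p6) the span of Pmel contains Cdk2, so signal of the pigment gene and of Cdk2 may not be separable, and this was not tested. Myc fell by 1.26 (8.22 and 8.81 against 9.76 and 9.78, adjusted p = 0.00584). Of the 16 genes in the list 5 rose and 4 fell, beside 15.5% of all genes higher and 16.9% lower. Fewer rose without either melanoma array or day 50 replicate 2.

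CDK inhibitors of the Ink4 family differed in direction. Cdkn2c, the Ink4 family inhibitor of Cdk4 and Cdk6, read 8.89 and 8.61 in melanoma against 6.29 and 6.22 at day 50, a rise of 2.50 (SE 0.23, adjusted p = 8.2e-05). Cdkn2b, the neighbour of Cdkn2a with the same activity, read 8.97 and 8.82 against 7.39 and 7.21 and rose by 1.59 (SE 0.19, adjusted p = 0.000435). Cdkn2d fell by 1.45, but day 50 replicate 1 stood apart at 8.37 against 6.92, and the call was lost without it or without either melanoma array. Btg2, an antiproliferative p53 target, read 7.26 and 8.68 against 10.24 and 9.73 and fell by 2.02 (adjusted p = 0.00436). Cdkn1b (-0.49), Rb1 (-0.04) and Rbl2 (0.09) did not pass, and Glb1, the lysosomal galactosidase behind the senescence stain, rose by 1.72 (8.15 and 7.94 against 6.40 and 6.26). Of the 20 CDK inhibitor and growth arrest genes 5 rose and 2 fell, beside 15.5% of all genes higher and 16.9% lower. Their median of 0.10 was -0.03 when arrays were scaled to 1 interquartile range. Of 19 p53 pathway genes 3 rose and 2 fell, beside 15.5% of all genes higher and 16.9% lower, and fewer rose without either melanoma array. Among them Gadd45a rose by 1.69 (adjusted p = 0.000493), while Mdm2 (0.55) did not pass.

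**Figure D3:**
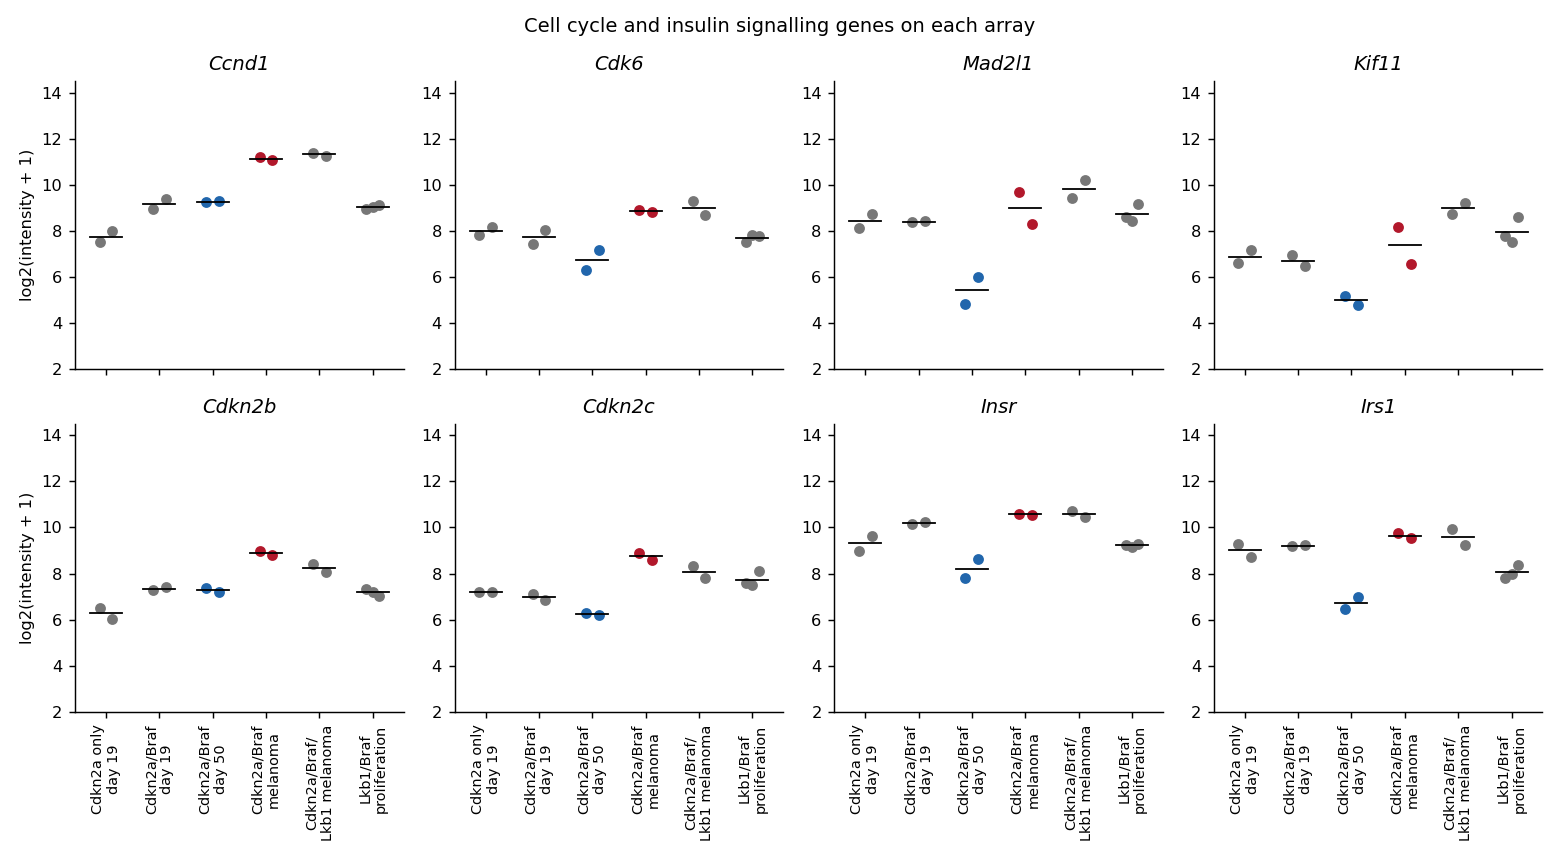
Levels of 8 cell cycle and insulin signalling genes on each array (log2(intensity + 1)) in the 6 groups; each point is an array, each line a group mean, red marks Cdkn2a/Braf melanoma and blue marks day 50. The 8 genes shown were picked among those that rose. Both melanoma arrays lie above both day 50 arrays in each panel, as for 25.7% of all genes. The melanoma arrays are close for Ccnd1 (11.19 and 11.06) but differ for Mad2l1 (9.67 and 8.31) and Kif11 (8.19 and 6.58).

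Several feedback genes of the Erk pathway rose. Spry4, an inhibitor that Erk induces, read 8.67 and 8.54 against 6.74 and 6.86, a rise of 1.81 (SE 0.28, adjusted p = 0.00177). Spry2 rose by 1.05 and Spred1 by 0.95, a difference of 0.08 when arrays were scaled to 1 interquartile range. Spred2 and Etv1 rose too, but the day 50 arrays disagreed on both: Etv1 read 6.0 and 9.89 there against 10.85 and 10.81 in melanoma. Both lost the call without either melanoma array, and Spred2 without day 50 replicate 2. The phosphatase genes Dusp6 (-0.32), Dusp4 (0.40) and Dusp5 (-0.31) did not pass, nor did Etv4 (-0.01), Etv5 (2.45) or Fosl1 (0.23). Egr1 fell by 1.70 and Phlda1 by 0.75. Both lost the call without melanoma replicate 1, Egr1 also without day 50 replicate 2 and Phlda1 without day 50 replicate 1. Of 23 genes 10 rose and 3 fell, with a median of 0.40, beside 15.5% of all genes higher and 16.9% lower. Fewer of them rose without either melanoma array or day 50 replicate 2. When arrays were scaled to 1 interquartile range 6 were higher and 5 lower, with a median of 0.25. In the cascade itself Map2k1, which encodes Mek1, rose by 1.66 (9.05 and 8.92 against 6.66 and 7.98, adjusted p = 0.0066) and Map2k2 fell by 0.48, a call lost without melanoma replicate 1 or day 50 replicate 2. That list of 15 had 7 higher and 1 lower, beside 15.5% of all genes higher and 16.9% lower. Fewer of its genes rose without either melanoma array. Its median of 0.42 turned to -0.18 when arrays were scaled to 1 interquartile range.

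Of 28 immediate early and stress genes 12 fell, 0 rose and 16 did not pass, beside 16.9% of all genes lower. Atf3, a stress-induced factor, read 6.48 and 6.59 in melanoma against 9.09 and 10.02 at day 50, a fall of 3.02 (SE 0.26, adjusted p = 6.78e-05). Fosb read 6.63 and 8.38 against 10.17 and 10.51 and fell by 2.83 (adjusted p = 0.00137). Fos fell by 2.54 (5.76 and 8.18 against 9.85 and 9.18, adjusted p = 0.0142), Ier2 by 1.62 and Junb by 1.28. On replicate 1 of the melanomas Fos, Fosb and Egr1 were lower than on replicate 2, and both lay below the day 50 arrays. The median of the list was -0.64. Fewer of its genes fell without melanoma replicate 1 or day 50 replicate 2, and more without melanoma replicate 2. Dissociation and sorting of live cells are known to induce such genes, the day 50 samples were sorted and the melanomas were not, and the part of handling was not tested. The sorted day 19 melanocytes had lower means, 7.20 for Atf3, 8.25 for Fosb and 8.37 for Fos.

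Of 27 genes of IGF, PI3K, Akt and mTOR signalling 13 rose, 1 fell and 13 did not pass, beside 15.5% of all genes higher. Irs1, the adaptor below the insulin and IGF receptors, read 9.74 and 9.56 in melanoma against 6.45 and 6.99 at day 50, a rise of 2.93 (SE 0.29, adjusted p = 0.000124). Insr, the insulin receptor, read 10.60 and 10.56 against 7.82 and 8.62 and rose by 2.36 (SE 0.26, adjusted p = 0.000245). Igf1r read 8.83 and 8.86 against 7.49 and 6.95 and rose by 1.62 (adjusted p = 0.00359). Akt2 rose by 1.89, Pdpk1, the kinase that activates Akt, by 1.18, and Rheb, the GTPase that switches on mTORC1, by 1.14, which was 0.34 when arrays were scaled to 1 interquartile range. At day 19, before arrest, Irs1 averaged 9.22, Insr 10.19 and Akt2 9.96, nearer to the melanoma than to the day 50 levels. The ligand gene Igf1 averaged 5.33 at day 19, read 6.35 and 8.39 at day 50 and 10.11 and 10.36 in melanoma (2.87, SE 0.50, adjusted p = 0.00324). Akt1s1, an mTORC1 inhibitor, fell by 0.79 (6.97 and 6.96 against 7.79 and 7.73). The median of the list was 0.61 and was 0.29 when arrays were scaled to 1 interquartile range, and then 7 were called higher and 5 lower. Fewer of the list rose without either melanoma array or day 50 replicate 1. Tsc1 (-0.17), Tsc2 (0.17) and Foxo1 (0.05) did not pass. Of 9 IGF binding protein genes 4 rose and 0 fell, beside 15.5% of all genes higher. Among them Igfbp4 read 9.58 and 9.87 against 6.90 and 6.95 (2.80, SE 0.20, adjusted p = 1.88e-05). Of the Lkb1 and AMPK genes 3 of 24 were higher and 4 lower, beside 15.5% of all genes higher and 16.9% lower. These counts changed when an array was left out. The median of the Lkb1 and AMPK genes, 0.19, was -0.06 when arrays were scaled to 1 interquartile range.

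Receptor kinase genes moved in both directions. Beside Kit, Fgfr2 (-1.19), Fgfr3 (-0.60), Ddr1 (-0.63) and Alk (-0.41) fell. The call was lost for Fgfr2 without melanoma replicate 1 or day 50 replicate 1, for Fgfr3 without either melanoma array or day 50 replicate 1, for Ddr1 without melanoma replicate 2, and for Alk without any of the 4 arrays. Pdgfra, a receptor of mesenchyme and fibroblasts, read 11.41 and 10.41 in melanoma against 7.90 and 6.80 at day 50, a rise of 3.56 (adjusted p = 0.000198). Ddr2, a collagen receptor, rose by 2.61 (9.45 and 9.04 against 6.17 and 7.10), Mertk, a receptor of macrophages and other cells, by 2.49, and Fgfr1 by 1.83 (10.06 and 9.58 against 7.83 and 8.14). Met did not pass, with 9.33 and 7.57 against 7.37 and 9.55, and neither did Egfr (0.21) or Erbb3 (-1.04). The list of 24 had 9 higher and 5 lower, with a median of -0.02, beside 15.5% of all genes higher and 16.9% lower. Fewer were lower without either melanoma array or day 50 replicate 1.

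Several matrix proteases and an inhibitor rose. Mmp3, stromelysin, read 10.75 and 8.63 in melanoma against 5.85 and 5.86 at day 50, a rise of 3.83 (adjusted p = 0.00135). Plau, the urokinase, read 9.44 and 7.77 against 6.72 and 5.80 and rose by 2.34, and the inhibitor gene Timp1 rose by 2.34 (10.10 and 9.69 against 7.76 and 7.35). On replicate 1 Mmp3 and Plau were higher than on replicate 2. Of 23 genes 7 rose and 0 fell, with a median of 0.41. Beside them, 15.5% of all genes and 26.4% of genes above the median level were higher. Mmp14 (0.90), Mmp9 (-0.05) and Plaur (0.35) did not pass. In the secretory inflammatory list, which shares Mmp3 and Plau, 6 of 23 rose and 2 fell, beside 15.5% of all genes higher and 16.9% lower. There Ccl2 rose by 2.46 (9.17 and 7.81 against 6.24 and 5.82) and Ccl8 by 2.93 (8.38 and 8.46 against 5.31 and 5.67), both chemokines that draw monocytes. Il6 (-0.06), Il1a (0.00), Tnf (-0.08) and Cxcl1 (-0.47), core members of the senescence secretome, did not pass.

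Most metabolic lists changed their counts with the scaling. Plod2, a collagen lysyl hydroxylase induced by hypoxia, kept its difference: 9.46 and 9.36 in melanoma against 5.17 and 4.96 at day 50, a rise of 4.35 (SE 0.17, adjusted p = 6.69e-07). Its mean at day 19 was 9.79. In the glycolysis and hypoxia list 10 of 28 rose and 2 fell, with a median of 0.55 that was 0.14 when arrays were scaled to 1 interquartile range. Egln3, an oxygen sensor, rose by 2.33 and lost the call without melanoma replicate 2, Aldoc rose by 1.47, and Ndrg1 fell by 1.79 (6.88 and 7.62 against 9.68 and 8.41). Slc2a1 (0.67), Hk2 (0.07) and Vegfa (0.45) did not pass. Of 30 oxidative phosphorylation subunits 8 rose and 0 fell with a median of 0.35, but with that scaling 0 rose and 12 fell with a median of -0.62. For 19 cytosolic ribosomal protein genes the counts were 2 higher and 0 lower, and with that scaling 0 and 17. No direction is given for these lists of bright genes. The lysosome list of 30 had 10 higher and 3 lower, and 3 and 9 with that scaling, and without melanoma replicate 1 or 2 it had 6 or 5 higher. Within it Ctsl, a cathepsin, rose by 2.32 (11.70 and 11.37 against 8.28 and 10.15), with an adjusted p of 0.0675 under that scaling, and Atp6v1b2, a proton pump subunit, fell by 1.77 (8.29 and 8.44 against 10.44 and 9.83). Nucleotide and ribosome synthesis genes had 7 of 26 higher and 0 lower, and 2 and 6 with that scaling. Leaving out either melanoma array left 3 oxidative phosphorylation subunits higher.

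Part of the sterol synthesis genes fell. Hmgcs1, an early enzyme of the pathway, read 8.17 and 8.39 in melanoma against 10.00 and 10.61 at day 50, a fall of 2.03 (SE 0.23, adjusted p = 0.000293). Scd2, a fatty acid desaturase, fell by 1.63 (8.46 and 8.59 against 10.51 and 9.80), Cyp51 by 1.16, Fdft1 by 1.12 and Srebf2, the factor that drives the pathway, by 0.73 (7.19 and 7.24 against 7.96 and 7.93). Of 20 genes 7 fell and 1 rose, beside 16.9% of all genes lower and 15.5% higher. Their median of -0.34 was -0.62 when arrays were scaled to 1 interquartile range. The amino acid supply list around Atf4 had 3 of 24 higher and 1 lower, beside 15.5% of all genes higher and 16.9% lower. Its median was -0.06, and more of its genes rose without day 50 replicate 2. Slc7a11, the cystine transporter, read 6.80 and 7.76 against 4.88 and 4.91 and rose by 2.39, a call lost without melanoma replicate 2, and Asns rose by 1.46, while both had higher means at day 19 (9.50 and 10.51). Vldlr, a lipoprotein receptor of the same list, rose by 3.07 (9.27 and 9.51 against 6.12 and 6.52, adjusted p = 2.82e-05).

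**Figure D4:**
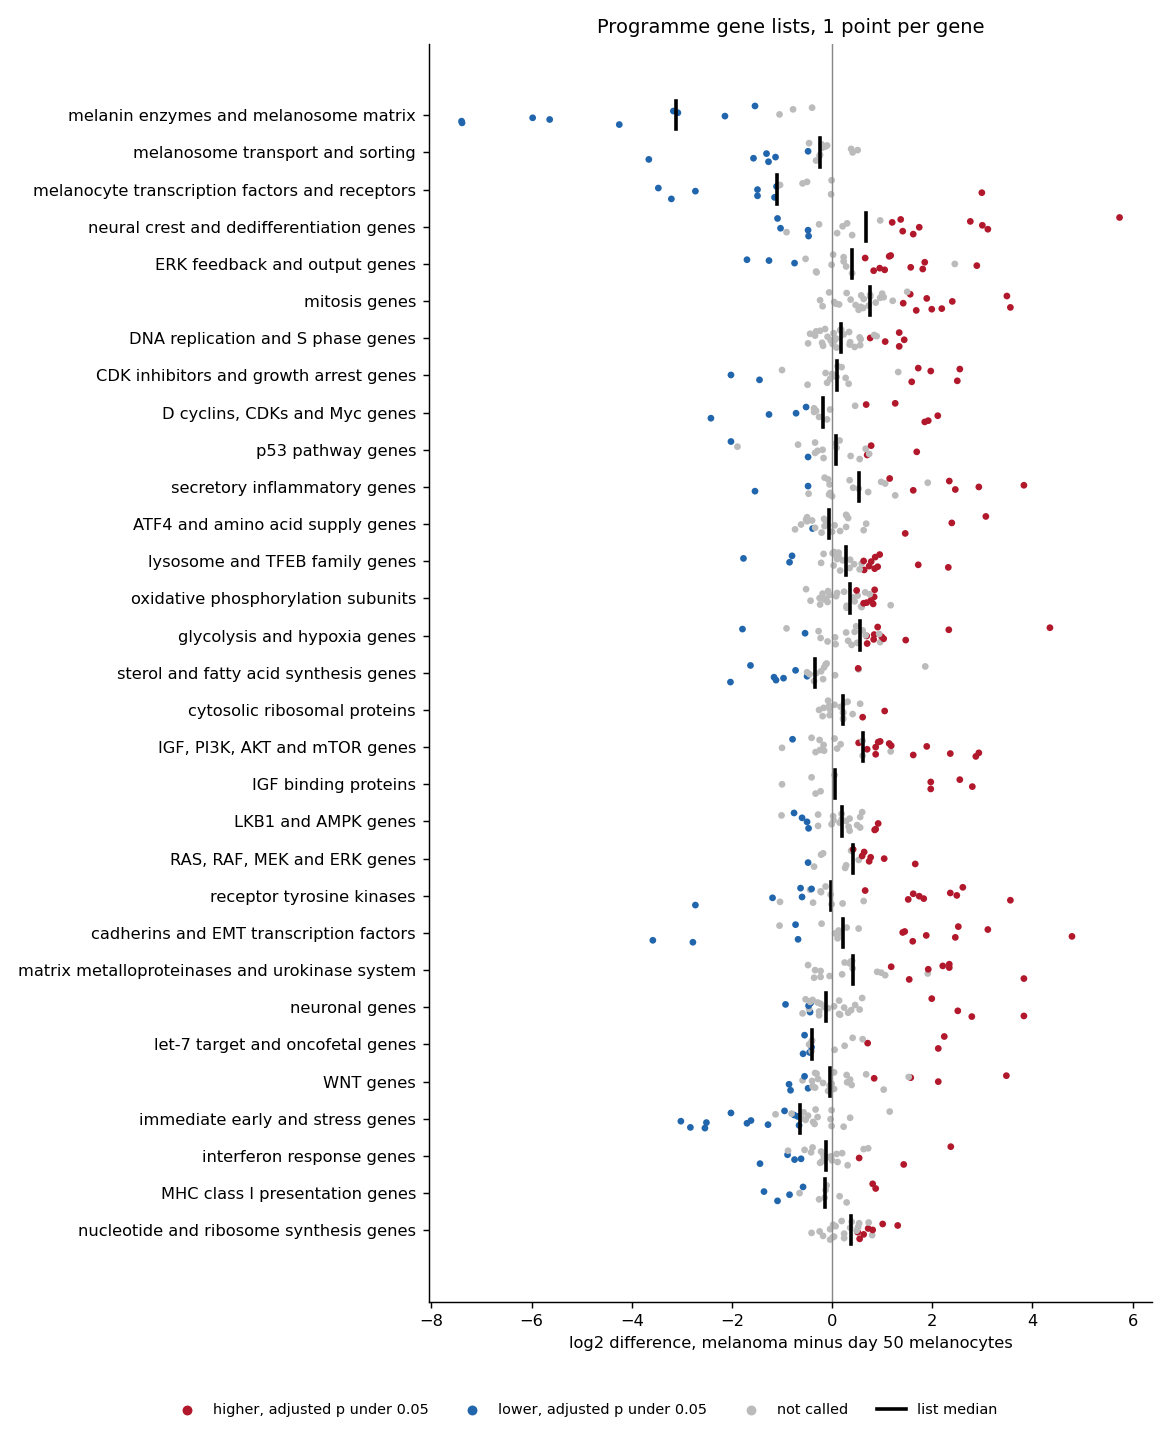
Difference of each measured member of the 31 programme lists, melanoma minus day 50 (log2, horizontal axis), with 1 point per gene and a black bar at each list's median; red members were higher and blue members lower at an adjusted p under 0.05. The melanin list lies furthest to the left with a median of -3.13 and the mitosis list has the highest median, 0.76.

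Markers of other cell types were judged apart from these lists. Macrophage genes had the highest median of the 46 lists. Mrc1, the mannose receptor, read 10.28 and 10.13 in melanoma against 5.0 and 5.51 at day 50, a rise of 4.95 (SE 0.55, adjusted p = 0.000267). Ctss, a cathepsin of antigen-presenting cells, read 10.72 and 10.67 against 5.83 and 5.64, and Tyrobp, an adaptor of myeloid receptors, 10.55 and 10.45 against 6.13 and 6.51. Tyrobp rose by 4.18 (adjusted p = 0.0234) and lost the call without either melanoma array or day 50 replicate 1. Csf1r, the receptor for the macrophage growth factor, read 8.20 and 8.34 against 6.0 and 5.85 and rose by 2.34 (adjusted p = 0.000784). Of 20 macrophage genes 17 rose and 0 fell with a median of 2.36, 18 had both melanoma arrays above both day 50 arrays (25.7% of all genes), and 11 rose in the fit of the 4 arrays alone. In that fit calls were kept by 6 of 9 melanin falls, 4 of 9 fibroblast rises and 4 of 9 neural crest rises. Fewer rises were kept elsewhere: 0 of 9 for mitosis, 2 of 13 for IGF and PI3K, and 3 of 10 for Erk feedback. Of the falls it kept 1 of 12 immediate early, 1 of 11 glial and 1 of 6 keratinocyte genes. Their summed intensity was 9863 and 9104 in melanoma against 1248 and 1662 at day 50. Cd14 overlapped between the groups, since day 50 replicate 2 read 8.89 and replicate 1 read 6.62. Ptprc, the pan-leukocyte gene, chosen after its values were seen, rose by 3.11 (8.92 and 8.62 against 5.73 and 5.59).

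Other immune lists had few genes called higher except for mast cells, though some differences that did not pass were large. Mcpt4, a mast cell protease, read 8.66 and 10.30 in melanoma against 4.63 and 4.66 at day 50, a rise of 4.83 (SE 0.53, adjusted p = 0.00025). Cpa3, a mast cell carboxypeptidase, read 8.72 and 10.56 against 5.03 and 5.62 and rose by 4.32. Replicate 2 of the melanomas was higher for Mcpt4, Cpa3 and Tpsab1 (7.92 and 9.99). Of 14 mast cell genes 6 rose and 2 fell, beside 15.5% of all genes higher and 16.9% lower. More rose without melanoma replicate 1 and fewer without melanoma replicate 2. Of the 2 that fell, Kit is the melanocyte receptor named above. Among 11 MHC class II and dendritic cell genes Itgax rose by 0.91, a call lost without melanoma replicate 1 or either day 50 array, and Cd74 (2.47), H2-Aa (2.32) and H2-Ab1 (1.86) did not pass. Of 17 T and NK cell genes Cd3g rose by 1.40 (6.35 and 6.68 against 5.17 and 5.06), a call lost without melanoma replicate 2, and 1 fell. Of 13 neutrophil genes 1 rose and 3 fell, beside 15.5% of all genes higher and 16.9% lower, and the list lost its calls without melanoma replicate 2. Of 10 B and plasma cell genes 5 fell, beside 16.9% of all genes and 24.9% of genes at or below the median level. The list had median levels of 5.48 to 5.99 on the 4 arrays and lost its calls without melanoma replicate 2.

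Stromal lists rose in part. Dpt, dermatopontin, read 10.86 and 10.02 in melanoma against 4.91 and 4.21 at day 50, a rise of 5.88 (SE 0.67, adjusted p = 0.000296) or 58.9-fold. Fbln1 rose by 2.29, Col6a3 by 2.10 and Lox, which crosslinks collagen, by 1.88. The defining fibroblast genes Col1a1 (-0.23), Col1a2 (0.51), Dcn (0.59) and Lum (-0.29) did not pass, and the differences of the list ran from -0.39 to 5.88, with a median of 0.88. Of 14 pericyte and smooth muscle genes 5 rose and 0 fell, beside 15.5% of all genes higher. Rgs5, a pericyte marker, read 8.27 and 8.44 against 6.01 and 5.71 and rose by 2.49 (adjusted p = 2.28e-05), and Acta2, smooth muscle actin, rose by 1.68. Endothelial genes were mixed, with 3 of 17 higher and 2 lower, beside 15.5% of all genes higher and 16.9% lower. Their median was -0.02, but without day 50 replicate 1 more rose and the median was 0.44. Eng rose by 1.73, Flt1 by 1.25 and Sox17 by 0.85, while Pecam1 (-0.59), Cdh5 (0.11) and Kdr (-0.13) did not pass.

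Part of the epidermal genes fell. Krt5, the keratin of basal epidermis, read 5.37 and 9.47 in melanoma against 11.78 and 10.72 at day 50, and the 2 melanomas were far apart. Krt15 read 6.33 and 9.04 against 11.49 and 10.78 and fell by 3.45 (SE 0.68, adjusted p = 0.00579). Krt77, an epidermal keratin outside the list, read 6.24 and 9.58 against 11.75 and 11.98. Of 22 keratinocyte genes 6 fell. Their summed intensity was 1402 and 11370 in melanoma, replicates 1 and 2, against 20157 and 18270 at day 50. Without melanoma replicate 1, the replicate with little keratin, 4 fell and 2 rose, and without replicate 2, 18 fell. Krt5 and Krt77 lost their calls without melanoma replicate 1 or day 50 replicate 1, and Krt77 also without day 50 replicate 2. The sorted day 50 samples thus held keratin transcripts at high levels, and the mean of Krt5 was 9.0 in the sorted day 19 cells. Of 22 hair follicle genes 9 fell, with Hoxc13 at -1.75 the furthest. Beside them, 16.9% of all genes and 24.9% of genes at or below the median level were lower. Fewer of the list fell without either melanoma array or without day 50 replicate 1.

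Schwann cell and glial genes fell, 11 of 16, with 0 higher and a median of -1.33, beside 16.9% of all genes lower. Fewer of them fell without either melanoma array or day 50 replicate 1. Fabp7, a lipid carrier of glia and of melanoblasts, read 7.00 and 9.50 in melanoma against 11.75 and 12.22 at day 50, a fall of 3.74 (SE 0.61, adjusted p = 0.00234), and it averaged 12.71 in the day 19 melanocytes. The myelin genes behaved differently, since day 50 replicate 1 stood apart. Cldn19, a tight junction protein of Schwann cells, read 6.26 and 6.56 in melanoma and 10.11 and 7.75 at day 50, and Drp2, of the myelin sheath, read 5.26 and 5.34 against 8.39 and 6.22. Prox1, the factor of lymphatic endothelium, also had its peak there, with 10.61 and 8.55 at day 50 against 5.64 and 5.53 in melanoma, and so had Cldn5, an endothelial junction protein, with 9.92 and 7.62 against 7.36 and 6.93. Without day 50 replicate 1 the glial list had 9 lower and a median of -0.77, Prox1 fell by 2.96, and Cldn5 (-0.48) lost its call. Cldn5 and Drp2 also lost theirs without either melanoma array. Mal, a proteolipid of myelin and epithelia, was alike on both day 50 arrays (9.55 and 9.93 against 7.35 and 7.03) and fell by 2.55.

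**Figure D5:**
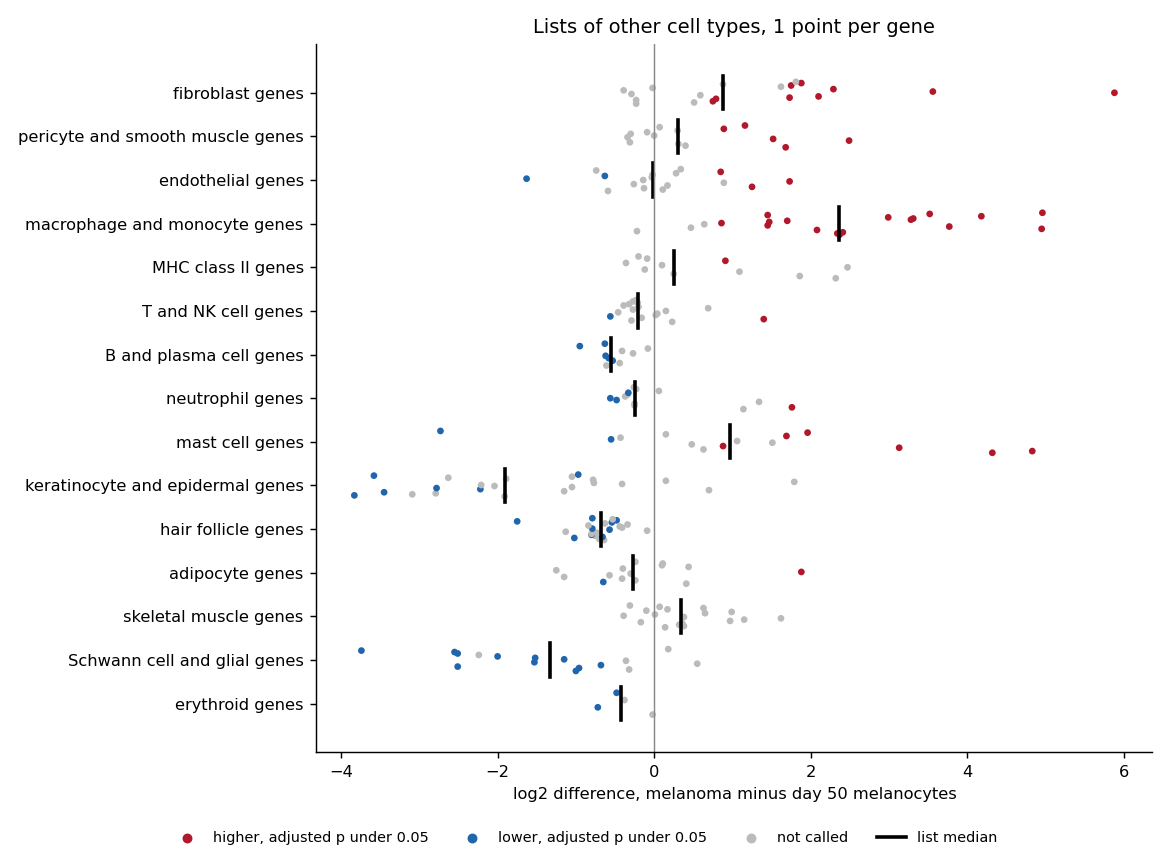
Difference of each measured member of the 15 lists of other cell types, melanoma minus day 50 (log2, horizontal axis), with 1 point per gene and a black bar at each list's median; red members were higher and blue members lower at an adjusted p under 0.05. Macrophage genes lie to the right with a median of 2.36, and keratinocyte and Schwann cell genes to the left with medians of -1.90 and -1.33.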

How the data were processed

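RNA of 13 samples was amplified (NuGEN Ovation) and hybridised to Affymetrix arrays, per the labels' protocols. The deposited values are linear intensities from 3.35 to 17698, made with RMA per the submitters' processing notes; its version and how its log values became linear are not given in the sources used here. Of 34760 probe sets, 21640 name 1 gene in the platform annotation, 1321 name several and 11799 are not listed there. The brightest probe set stood for each of the 954 genes with several, which gave 19937 genes.

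Deposited intensities were turned into log2(intensity + 1) without further scaling. limma 3.58.1 in R 4.3.3 fitted 6 group means over 13 arrays (7 residual and 3.08 prior degrees of freedom), with Benjamini-Hochberg adjustment over 19937 genes at 0.05, and was tested on simulated data. Only 2 arrays a group limit the precision. Tables and plots used Python 3.11.15, pandas 2.3.3, numpy 2.4.6 and matplotlib 3.10.9.

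Genes were named by rule: the 12 largest increases and 12 largest decreases past the threshold, with a difference of at least 1 on the log2 scale and no overlap of arrays, outside the lists of other cells; the 6 largest changes either way of each list of other cells; the 4 largest called changes either way of each programme list; any other list member given with its value; and Braf, Cdkn2a and Stk11. Xist, Eif2s3y and Ptprc fall outside it. The comparison and the 46 gene lists (31 of programmes, 15 of other cells) were chosen with earlier results of these data known. Same-numbered replicates did not deviate together (r = 0.007 over genes), so the numbers were not taken to pair samples. Promoter sequences are RefSeq's (GRCm38.p6). Scaling, pseudocount, filters, probe set choice, moderation, array weights, samples in the fit, the replicate block and each left-out array were varied.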

Additional observations from a re-analysis of the deposited data

How the results depend on the processing

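The counts of 3087 higher and 3375 lower genes moved most with the samples in the fit. With array weights they were 1571 and 426, and with only the 4 arrays compared 468 and 38. Level filters take genes out of the test, so their counts cover fewer genes. The lower count was 790 among genes above the median level, where the main fit called 896. It was 1745 among genes with log2 above 6 in 2 arrays. Leaving out 1 array gave 1910 (without melanoma replicate 2) to 3405 higher and 851 (without melanoma replicate 2) to 3309 lower, and 1813 lower without melanoma replicate 1. The replicate block gave 2652 higher and 2417 lower; the numbers do not pair the samples. The neural crest median of 0.68 was 1.20 above the median level and 0.41 to 1.06 with an array left out. The IGF and PI3K median of 0.61 was 0.35 under quantile normalization, 0.29 under interquartile range scaling and 0.39 to 0.89 with an array left out. The cadherin median of 0.21 was -0.01 under quantile normalization, -0.33 under interquartile range scaling, 0.29 above the median level and 0.19 to 0.44 with an array left out. The immediate early median of -0.64 was -1.23 under interquartile range scaling, the fibroblast median of 0.88 was 1.25 above the median level, and the macrophage median of 2.36 was 2.06 with a pseudocount of 16. The cause was not tested. Scan dates were not analysed here, and signal over background could not be set for these values.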

Other observations

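Dkk2, a secreted WNT modulator, read 10.95 and 9.86 in melanoma against 6.86 and 6.99 at day 50, a rise of 3.48 (SE 0.49, adjusted p = 0.000971), and Lrp6, the WNT co-receptor, read 9.77 and 9.49 against 7.26 and 7.75, a rise of 2.12 (SE 0.16, adjusted p = 3.28e-05). Of 29 WNT genes 4 rose and 4 fell, with a median of -0.05, beside 15.5% of all genes higher and 16.9% lower. Fewer of them fell without either melanoma array or without day 50 replicate 1. Hmga2, an oncofetal chromatin protein, read 9.24 and 9.10 against 6.94 and 7.17 and rose by 2.12 (adjusted p = 0.00085), and Plag1, an oncofetal transcription factor, read 9.36 and 9.11 against 7.20 and 6.77 and rose by 2.24 (adjusted p = 0.00753). The list of 15 let-7 targets and oncofetal genes had 3 higher and 4 lower, beside the same 15.5% and 16.9%. Fewer of its genes were lower without either melanoma array or day 50 replicate 1.

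Some neuronal genes differed between the melanomas. Nefm, the medium neurofilament, read 9.88 on melanoma replicate 1 and 7.33 on replicate 2 against 4.57 and 4.99 at day 50, and rose by 3.83 (adjusted p = 0.00196). Gap43, a protein of growing axons, read 10.68 and 8.31 against 6.99 and 6.98 and rose by 2.51, a call lost without melanoma replicate 1. Of 30 neuronal genes 4 rose and 4 fell, beside 15.5% of all genes higher and 16.9% lower. Their median of -0.12 was 0.15 when arrays were scaled to 1 interquartile range. The counts were 1 higher and 0 lower without melanoma replicate 1, 3 and 1 without melanoma replicate 2, and 3 and 2 without day 50 replicate 1. Both genes were also high in Cdkn2a/Braf/Lkb1 melanoma, with means of 10.29 for Nefm and 10.87 for Gap43.

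Interferon response genes (3 of 24 higher, 4 lower) and MHC class I genes (2 of 13 higher, 4 lower) had members in both directions. Beside them, 15.5% of all genes were higher and 16.9% lower. Without melanoma replicate 1 the counts were 1 and 4 for interferon and 1 and 2 for MHC class I, and without melanoma replicate 2 they were 2 and 2 for both. Without day 50 replicate 1 they were 5 and 6 for interferon and 3 and 3 for MHC class I, and without day 50 replicate 2 1 and 6 and 2 and 5. The 18 skeletal muscle genes had a median of 0.34, and their summed intensity was 5081 and 1247 in melanoma against 1657 and 1689 at day 50. Adipocyte genes had 1 of 14 higher and 1 lower, and of 4 erythroid genes 2 fell, with 0 lower without melanoma replicate 2 or day 50 replicate 2. Among 291 microRNA precursor probe sets 2 were higher and 102 lower, with a median of -0.35; when arrays were scaled to 1 interquartile range 71 were higher and 66 lower, with a median of 0.02.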
